A study of Homo sapiens with 10 samples.

Results

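Distal H3K27Ac peaks that lacked H3K4me1 were examined in MDAMB231, a human triple-negative breast cancer cell line with a mesenchymal-like phenotype. They were chosen as peaks of the H3K27Ac list narrower than 10000 bp, on chromosomes 1 to 22, that shared no base with an H3K4me1 or H3K4me3 peak and had no GENCODE transcription start site within 2 kb of their bounds. The rule found 4589 of the 37495 H3K27Ac peaks. They were split by FAIRE, and 2565 shared at least 1 base with a FAIRE peak while 2024 did not. The remaining distal peaks, which met the same limits but shared at least 1 base with an H3K4me1 peak, numbered 12701 and served as the comparison set.

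The study mapped open chromatin and histone marks in these cells, which were grown in DMEM with FBS and received no treatment. There were 2 samples each for H3K27Ac, H3K4me1, H3K4me3 and FAIRE, 1 input for ChIP and 1 input for FAIRE. The authors combined the samples of an assay into 1 list, so no replicate error can be given for any peak, and no test between the sets was possible. Shares are therefore given with 95% Wilson intervals, which cover counting error over peaks only, and neighbouring peaks are not independent of each other. The files give no read counts, so the depth behind a peak is unknown here. At gene starts, H3K27Ac peaks covered 6 of 6 genes typical of mesenchymal-like cells (VIM, CD44, AXL, CAV1, ZEB1 and EGFR). Of 7 luminal or epithelial genes, ESR1, PGR and FOXA1 had no H3K27Ac peak at a start, while GATA3, CDH1, ERBB3 and EPCAM had peaks with scores of 383, 538, 857 and 1255. H3K4me3 peaks covered starts of all 6 of the first genes and of 6 of the 7 others, including ESR1 (score 1258), PGR (400) and FOXA1 (2735), so this mark did not separate the lists. The score expresses the MACS p-value as its log10 multiplied by minus 10, and values stop rising near 3100, which VIM, AXL, CAV1, ZEB1 and EGFR reached. The FAIRE list has no header, and its value was taken as the height of the peak.

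H3K27Ac is acetylation of lysine 27 on histone H3 and marks active promoters and enhancers. H3K4me1, a single methyl group on lysine 4, is spread over enhancers whether or not they are active, and H3K4me3 marks promoters. FAIRE recovers DNA that is poorly crosslinked to nucleosomes and so finds open chromatin, where transcription factors such as AP-1, a dimer of FOS and JUN family proteins, can bind.

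The sequences of 3 open regions of these peaks follow, because AP-1 was the motif found most often in such windows. Each is the 300 bases centred on the tallest FAIRE peak of a member, on the forward strand of GRCh37 (hg19), 5′ to 3′. Capitals mark matches to the AP-1 motif TGANTCA, where N is any base and the letters read the same on both strands. The first 2 held 1 match each, and the last held none of the 9 motifs searched.
Near TBC1D8, chr2:101741363-101741662: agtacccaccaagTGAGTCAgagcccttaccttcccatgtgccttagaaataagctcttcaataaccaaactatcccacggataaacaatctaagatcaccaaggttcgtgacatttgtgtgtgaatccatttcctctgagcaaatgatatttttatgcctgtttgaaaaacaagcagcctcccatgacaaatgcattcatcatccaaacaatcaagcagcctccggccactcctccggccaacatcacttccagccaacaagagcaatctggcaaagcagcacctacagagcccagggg
Near CSF2, chr5:131439008-131439307: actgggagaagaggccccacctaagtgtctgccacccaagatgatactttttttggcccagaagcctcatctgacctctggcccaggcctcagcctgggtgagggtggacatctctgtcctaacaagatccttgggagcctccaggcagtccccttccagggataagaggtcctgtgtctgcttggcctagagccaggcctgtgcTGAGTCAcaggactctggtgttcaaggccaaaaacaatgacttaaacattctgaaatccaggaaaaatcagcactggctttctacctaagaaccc
152 kb from CD83, chr6:14271202-14271501: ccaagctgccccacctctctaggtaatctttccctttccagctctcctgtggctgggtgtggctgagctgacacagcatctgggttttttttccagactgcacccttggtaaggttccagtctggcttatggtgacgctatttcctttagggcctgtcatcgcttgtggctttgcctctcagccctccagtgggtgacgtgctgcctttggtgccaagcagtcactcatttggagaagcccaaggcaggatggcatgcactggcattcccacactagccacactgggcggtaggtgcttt

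In the window near CSF2, the gene for the cytokine GM-CSF, the match was centred 59 bp from the middle of the FAIRE peak, and in that near TBC1D8 at -133 bp, close to the edge. The member near TBC1D8, a gene for a protein with a Rab GTPase-activating domain, was 9832 bp wide and held 3 FAIRE peaks, of which the tallest, with a height of 129, is the one shown. These letters describe the reference sequence and do not show that a factor was bound.

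FAIRE, the readout the rule did not use to choose members, was less frequent without H3K4me1. It overlapped 55.9% of the members (54.5% to 57.3%), against 67.9% of all H3K27Ac peaks on these chromosomes and 83.1% (82.4% to 83.7%) of the distal peaks with H3K4me1. The difference between the distal sets was 27.2 percentage points (25.6 to 28.8). Where a FAIRE peak was present, its height had a median of 60.3 without H3K4me1 and 75.5 with it. Only 219 members (4.77%) held 2 or more FAIRE peaks, compared with 18% of the comparison set. When only the taller FAIRE peaks were counted, from the median of the list upward, the share of members with FAIRE was 27.3%, and that of the comparison set was 57.8%. In all, members held 2814 FAIRE peaks, or 6.3% of the 44697 on these chromosomes.

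The 2 sets also differed in H3K27Ac score and width, which come from the list used for selection and are given as a description. Members had a median score of 143 (quartiles 81.3 and 337), and the comparison set had a median of 447 (quartiles 163 and 1312). Their median widths were 2005 bp and 2566 bp. Members were thus weaker and narrower acetylated regions on the whole, but not without exception, since 67 of them scored 3100 or more. Members with FAIRE had a median score of 196 and those without FAIRE one of 110.

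The share of distal peaks that lacked H3K4me1 fell with each step in H3K27Ac score. It was 47.7% (46% to 49.4%) at scores from 50 to under 100, 26.3% from 200 to under 400, and 5.24% (4.15% to 6.6%) at 3100 or more. The lack of an H3K4me1 peak was thus mostly found among weakly acetylated regions. FAIRE rose along the same scale, and the gap between the sets narrowed in percentage points as both shares neared 100%. A narrower gap near that ceiling does not show that the sets became alike. Below a score of 100, FAIRE was present at 43.1% of members and 64.4% of the comparison set. From 800 to under 1600 the shares were 84.8% (80.2% to 88.5%) and 91.7% (90.4% to 92.9%). At scores of 3100 or more they were 98.5% (66 of 67) and 99.3% (1202 of 1211). With both so near 100%, the overlap of their intervals does not decide whether the sets differed there.

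**Figure D1:**
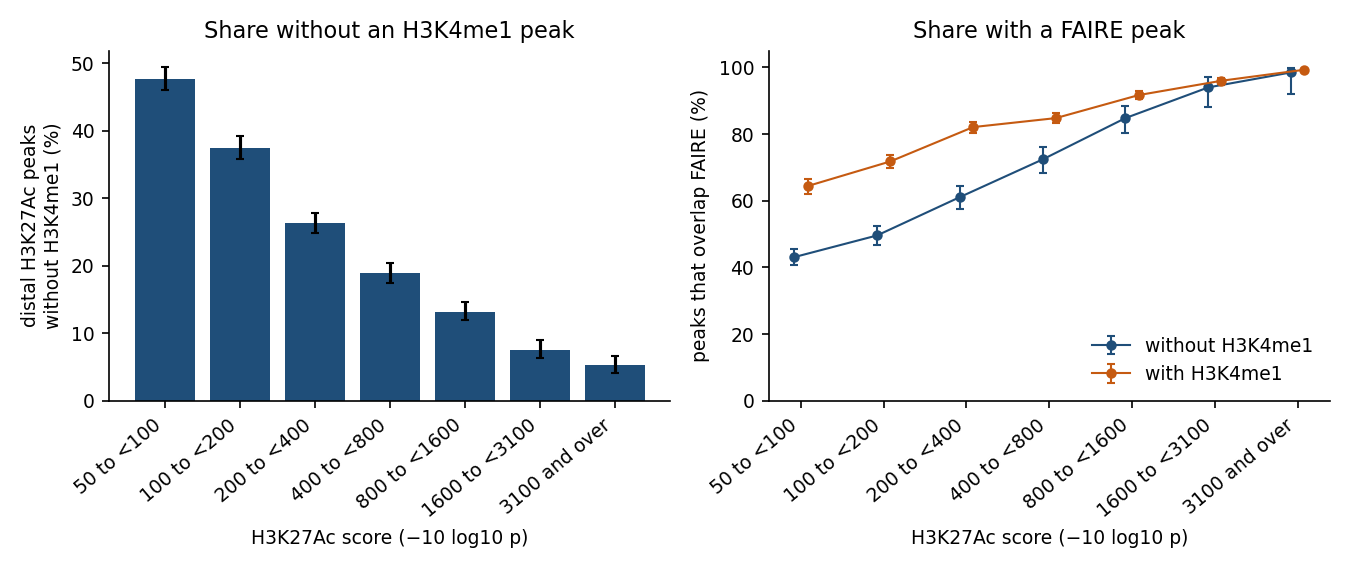
Left, percentage of distal H3K27Ac peaks without an H3K4me1 peak in 7 classes of H3K27Ac score (bars, with 95% Wilson intervals), falling from 47.7% to 5.24%. Right, percentage of peaks that overlapped FAIRE in the same classes (points, with 95% Wilson intervals), where the sets without and with H3K4me1 were 43.1% and 64.4% in the lowest class and 98.5% and 99.3% in the highest.

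When both sets were divided together at the quartiles of the score, FAIRE shares without and with H3K4me1 were 43.9% and 65.7% in the lowest class, 54.8% and 76.9% in the next, 71% and 85.4% in the class above, and 90.6% and 95.8% in the highest. Width classes gave the same order, from 42.4% and 65.3% in the narrowest class to 83.3% and 94.8% in the widest. In each of these 8 classes the intervals of the sets did not overlap. Score and width moved with the FAIRE difference, and how much of it they account for was not tested.

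Most members lay well away from H3K4me1 peaks. Their median distance to the nearest H3K4me1 peak was 23636 bp (quartiles 8016 bp and 70479 bp), and 796 members (17.3%, 16.3% to 18.5%) had such a peak within 5 kb. Another 866 members (18.9%) were more than 100 kb away, and 75 were more than 1 Mb away. In 7 classes of this distance, from under 1 kb to beyond 500 kb, FAIRE was present at 52%, 55.5%, 53.8%, 59.1% (56.8% to 61.4%), 54.2%, 54% and 48.4% (40.6% to 56.2%) of members, with no steady rise or fall. Only the intervals of the highest and the lowest class did not overlap. The median score was 120 in the nearest class and 148 in the farthest. Of the H3K4me1 peaks nearest to the members within 5 kb, 39.8% scored under 100, close to the 42.9% in the whole H3K4me1 list.

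**Figure D2:**
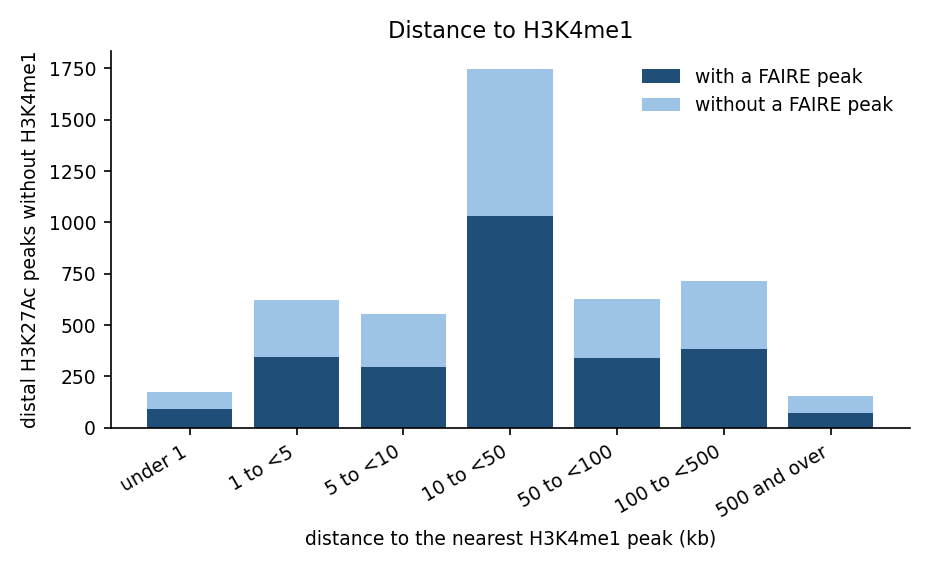
Number of distal H3K27Ac peaks without H3K4me1 in 7 classes of distance to the nearest H3K4me1 peak in kb, split by FAIRE (dark, with; light, without). The largest class, 10 to 50 kb, held 1748 peaks, of which 1033 overlapped FAIRE.

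H3K4me1 itself gave weaker scores than the other marks in these files. Its list had a median score of 114 with none at 3100 or more, against a median of 591 for H3K27Ac and 3100 for H3K4me3. Membership depended on the thresholds of the H3K4me1 and H3K4me3 lists, which were changed together. If only H3K4me1 and H3K4me3 peaks with a score of at least 100 were used to remove peaks, 8439 peaks met the rule, and their FAIRE share was 62.6%. If instead H3K27Ac peaks had to score at least 100, 2998 members were left, with a FAIRE share of 62.7%. The width limit mattered less. The widest member measured 9898 bp, and the 22 peaks of at least 10000 bp that met the rest of the rule began at 10133 bp. At the start site limit, the closest member lay 2005 bp from a start, while 1425 peaks were removed by a start alone, the farthest of them at 2000 bp. The member closest to an H3K4me1 peak was 6 bp from it, and the smallest stretch shared by a peak of the comparison set was 3 bases.

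Base composition separated the sets in both directions. The distal peaks were ordered by GC content and divided into 10 classes of equal size. In the class of lowest GC (26.5% to 35.2%), 43% (40.7% to 45.3%) lacked H3K4me1, and in that of highest GC (49.2% and above), 48.9% (46.5% to 51.2%) did. Between them the share dropped to 15.5% (13.9% to 17.3%) at 38.5% to 39.8% GC. Peaks without H3K4me1 were therefore more frequent among both AT-rich and GC-rich acetylated regions. The same shape was seen at each level of acetylation. Below the median score of 318, the share was 58.5% in the lowest GC class, 25.4% in the fourth and 62.2% in the highest, and at or above that score it was 20.3%, 6.26% and 36.6%.

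**Figure D3:**
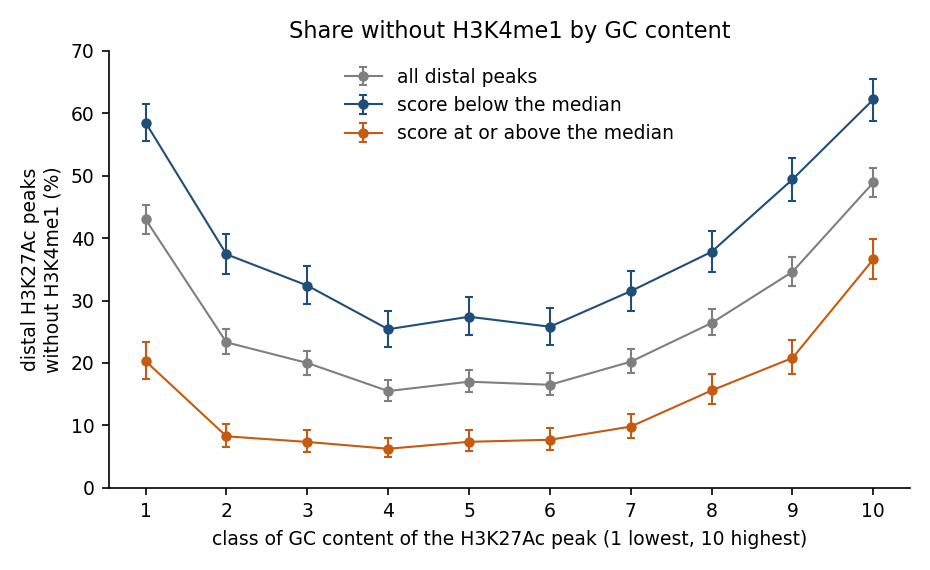
Percentage of distal H3K27Ac peaks without H3K4me1 (points, with 95% Wilson intervals) in 10 classes of GC content of equal size, for all distal peaks and for those below and at or above the median score of 318. All 3 lines are lowest in the fourth class and high at both ends.

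The complete lists differed in the same property. In the H3K4me1 list, 7.56% of peaks had a GC content above 50%, against 29.8% of the H3K27Ac list, 23.3% of the FAIRE list and 64.6% of the H3K4me3 list. The median GC content of members was 42.3% and that of the comparison set 40.9%. FAIRE also followed GC among members, from 50.7% (47.2% to 54.3%) in the lowest class to 65.9% (62% to 69.6%) in the ninth and 60.6% (57.3% to 63.8%) in the highest. In the comparison set it was 78.1% in the lowest class, 88% in the ninth and 79.5% in the highest. The part of base composition in the lack of H3K4me1 and in the FAIRE shares was not tested. Among distal peaks with a GC content of 36.2% to 48.7%, a range chosen after seeing the data, 55.9% of 2692 members and 84% of the comparison set overlapped FAIRE.

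Chromosomes differed in how often H3K4me1 was missing. On chromosome 19, 109 of 192 distal peaks lacked it (56.8%, 49.7% to 63.6%), and on chromosome 18, 155 of 355 did (43.7%, 38.6% to 48.9%). Chromosomes 3, 4 and 5 were lowest, at 19.8%, 19.9% and 20.3%. The number of H3K4me1 peaks per 100 H3K27Ac peaks was 19 on chromosome 19 and 55.1 on chromosome 18, compared with 84, 101 and 93.2 on chromosomes 3, 4 and 5. It did not follow the same order throughout, since chromosomes 16, 22 and 17 had 39.6, 50.6 and 53.1, fewer than chromosome 18, while smaller shares of their distal peaks lacked H3K4me1 (36.9%, 29.6% and 33.1%). By number, chromosome 2 held the most members (503), and chromosome 21 the fewest (52).

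FAIRE at the members also varied by chromosome, but in another order. It was present at 75% (61.8% to 84.8%) of members on chromosome 21, 73.8% on chromosome 20, 73.6% on chromosome 16 and 72.3% (64.7% to 78.7%) on chromosome 18. The lowest shares were 43.1% (37.1% to 49.4%) on chromosome 5 and 44.2% (37.2% to 51.5%) on chromosome 12. Chromosome 19, where H3K4me1 was most often missing, had a share of 53.2%. Members had median scores of 114, 197, 161 and 150 on chromosomes 21, 20, 16 and 18 and of 137 and 163 on chromosomes 5 and 12. The part of the score in these differences was not tested.

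**Figure D4:**
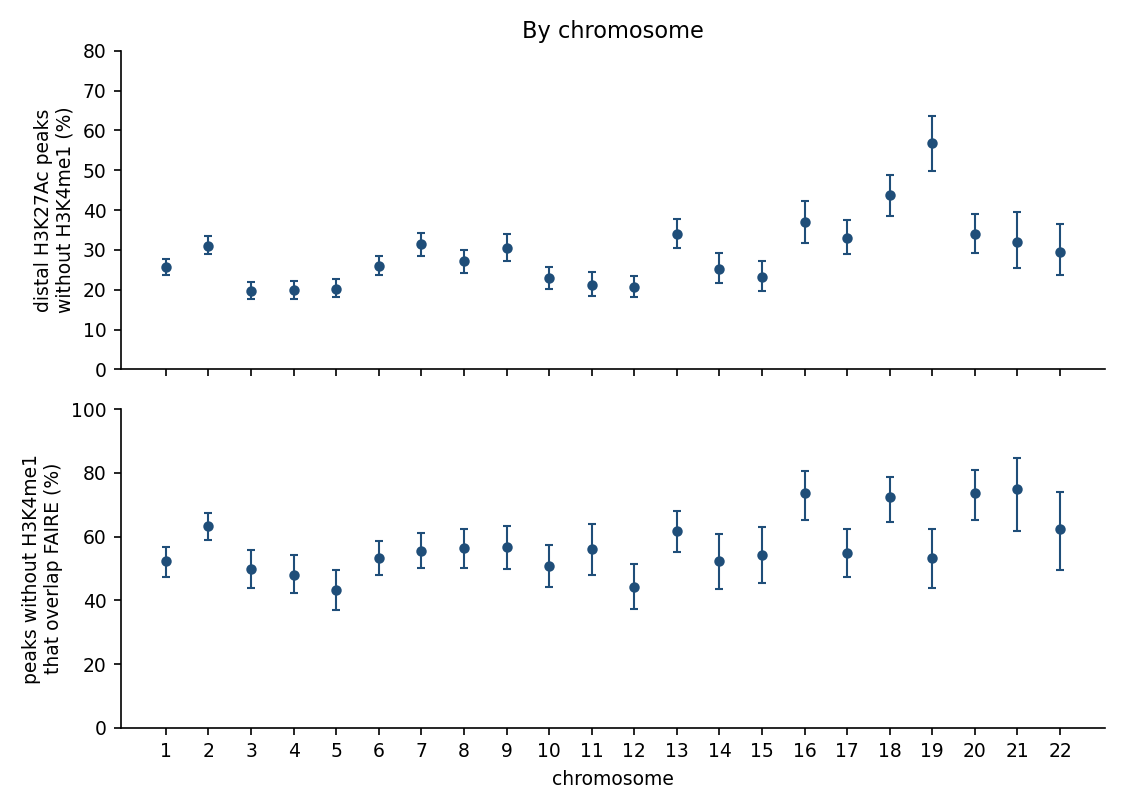
Top, percentage of distal H3K27Ac peaks without H3K4me1 on each of chromosomes 1 to 22. Bottom, percentage of those peaks that overlapped FAIRE. Points are shares with 95% Wilson intervals. Chromosome 19 is highest in the top panel (56.8%), and chromosomes 16, 18, 20 and 21 are highest in the bottom panel (72.3% to 75%).

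Members were spread over 1847 windows of 1 Mb, 626 of which held a single member, and 28 windows held 8 or more. The regions named in this paragraph were chosen after their values were seen. Over all distal peaks, 4589 of 17290 lacked H3K4me1, and FAIRE was present at 55.9% of all members. On chromosome 9, 21 members lay between the same pair of neighbouring H3K4me1 peaks, in a stretch of 9.47 Mb (chr9:6554121-16028150) that includes NFIB, a transcription factor gene, and PTPRD, a receptor phosphatase gene. This stretch carried other marks, and held 41 H3K27Ac peaks in all, 18 H3K4me3 peaks and 25 FAIRE peaks. Members there had a median score of 350, and 11 overlapped FAIRE. A second stretch without H3K4me1, on chromosome 18 from 60906474 to 68087069, held 17 members, 13 of them with FAIRE, and covered a cluster of serine protease inhibitor genes from SERPINB5 to SERPINB8. A 1 Mb window on chromosome 19 that holds PSG genes, among others, was different, and had 7 H3K4me1 peaks. In this window, from 43000001 to 44000000, 12 of 14 distal peaks lacked H3K4me1, 0 of the 12 had FAIRE, and their median score was 90.9. Over all members with scores under 100, FAIRE was present at 43.1%. The PSG genes encode pregnancy-specific glycoproteins. The window with the most members, chr1:14000001-15000000, held 14 of 18 distal peaks, only 3 of them with FAIRE, around KAZN, a gene for a protein of cell junctions.

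Members were placed in introns slightly less often than the comparison set. The peak centre lay in an intron for 2729 members (59.5%, 58% to 60.9%), against 55.9% of all H3K27Ac peaks and 63.2% of the comparison set. Intergenic centres made up 37.2% and exonic centres 3.33%. The median distance to the nearest start site was 13093 bp for members and 14730 bp for the comparison set, with the first 2 kb removed by the rule. Start sites were more than 100 kb away for 231 members (5.03%). An H3K27Ac domain of 10 kb or more was within 10 kb of 2.05% of members and 1.79% of the comparison set, and another H3K27Ac peak was within 5 kb of 29.9% and 35.2%.

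AP-1 matches were about as frequent in open members as in open peaks with H3K4me1. An AP-1 match was found in the 300 bases at the FAIRE centre of 1256 of the 2565 members with FAIRE (49%, 47% to 50.9%), against 39.2% of all FAIRE peaks. In the comparison set it was found at 49.2% (48.2% to 50.1%) of peaks with FAIRE. Windows 5 kb to either side of the members held a match in 9.86% (9.08% to 10.7%), and FAIRE peaks on H3K4me3 in 18.6%. The intervals of the distal sets overlapped, although the FAIRE peaks of the members were lower. In members with the tallest FAIRE peaks (height of 96.6 or more) the share was 54.1% (49% to 59%), and in those under 54.7 it was 46.3% (43.3% to 49.3%).

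AP-1 was also centred in members that had no FAIRE peak. Of these 2024 members, 622 (30.7%, 28.8% to 32.8%) held a match in the 300 bases at the middle of the H3K27Ac peak, compared with 10% (9.14% to 11%) of windows 5 kb away and 31.8% of the comparison set without FAIRE. In bins of 50 bp, the match frequency was 6.87% just before the centre and 1.53% at 1000 bp from it. At the FAIRE centres of members it rose from 1.52% at 1000 bp to 11.7% at the centre.

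**Figure D5:**
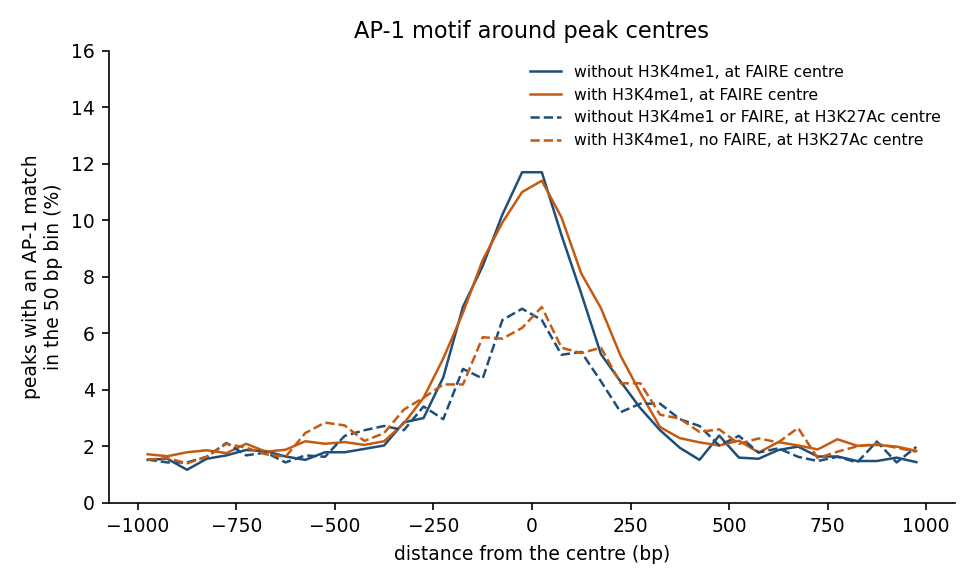
Percentage of peaks with an AP-1 match (TGANTCA) in each 50 bp bin, by distance in bp from the centre of the tallest FAIRE peak (solid lines) or, where there was no FAIRE peak, from the centre of the H3K27Ac peak (dashed lines). Blue lines are peaks without H3K4me1 and orange lines peaks with it. The lines of each pair lie close together, with centre values of 11.7% and 11% with FAIRE and 6.87% and 6.19% without in the bin before the centre.

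The other motifs were less frequent. The sequences searched, on both strands, were ACATTCC for TEAD, TGTGGTT for RUNX, AGGAAGT for ETS, TGTTTAC for FOX, GGGNNTTCC for NF-kB, GGGCGGG for SP/KLF, CACCTG for the E-box and the CTCF consensus, inside which an E-box can occur. In all FAIRE peaks they were found at 6.96%, 10.6%, 10.7%, 6.07%, 4.31%, 7%, 16.8% and 1.63%, in that order. Among members with FAIRE, the ETS motif was present in 12.6%, RUNX in 11.3%, TEAD in 9.08%, FOX in 5.73% and NF-kB in 3.98%. For these 5 motifs the intervals of members and comparison set overlapped. In the windows 5 kb away, ETS was found in 5.85%, RUNX in 5.69%, TEAD in 4.05% and FOX in 3.96%. NF-kB (3.43%, 2.97% to 3.96%) and SP/KLF (1.95%, 1.61% to 2.37%) had intervals there that overlapped those of open members. The E-box was less frequent in open members (16.1%) than 5 kb away (23.6%). Open peaks of the comparison set differed in the same direction, at 15.1% against 21.9%. SP/KLF, a motif of promoters, was found in 2.65% (2.1% to 3.35%) of open members and 1.45% (1.24% to 1.7%) of open peaks with H3K4me1, but in 26.4% of FAIRE peaks on H3K4me3. The windows 5 kb away differed in the same direction, at 1.95% for open members and 1.28% (1.14% to 1.45%) for the comparison set. CTCF matches, which mark insulator sites, numbered 16 (0.624%, 0.384% to 1.01%) against 0.199% (0.13% to 0.304%) in the comparison set and 5.85% of FAIRE peaks with none of the 3 marks, and were found in 0.136% and 0.0332% of the windows 5 kb from the open members and comparison set.

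Because MACS scores stop rising near 3100, the order among the members with the highest scores carries little information. With FAIRE, the nearest protein-coding starts of the first 6 were those of CREB3L3 (ENSG00000060566, score 3200), GJD4 (3199), CD83 (3168, at 152 kb), SLC44A2 (3108), PTPN14 (3100, at 44.4 kb) and TBC1D8 (3100). The member at chr1:214594100-214603997, in an intron of PTPN14, was 9898 bp wide and held 2 FAIRE peaks, the taller with a height of 190. PTPN14 (ENSG00000152104) encodes a tyrosine phosphatase that restrains YAP. A strong H3K4me1 region, with a score of 1598, lay 11559 bp from its bounds. In contrast, the member 27.9 kb from GJD4, a connexin gene, at chr10:35862117-35866341, was 109511 bp from H3K4me1. The distance was 1249 bp for the member assigned to CD83 and 2324 bp for that near TBC1D8, both shown by sequence above. It was 9641 bp for the member assigned to CREB3L3 and 46488 bp for that in SLC44A2.

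Strong acetylation without FAIRE was rare. The highest score among such members was 3100, at chr6:35451418-35456725 in an intron of TEAD3 (ENSG00000007866), a partner of YAP. This peak had a GC content of 57.9% and lay 106600 bp from H3K4me1. The others chosen by score were in introns of ACTN4 (2190), which encodes an actin crosslinker, and MARCHF1 (1932), a ubiquitin ligase gene, and in intergenic sequence 109 kb from BOD1 (1963). The tallest FAIRE peaks on members had heights of 205, 202 and 195. The first member had its centre in both PDE4DIP and PDE4DIPP2, and the others were in VMP1 and EYA2. Their H3K27Ac scores were 1206, 3100 and 1149, and H3K4me1 lay 63832, 11178 and 806 bp away. At the other end, the members with the lowest scores (50) were in introns of the long noncoding genes CFAP418-AS1 and LINC02941, and the latter overlapped FAIRE.

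Members were assigned to the nearest protein-coding start, without implying that they act on it. They fell to 2916 genes, of which 2012 had a single member. Genes of 7 lists were followed, and for each list the interval of its share of members overlapped that of the comparison set. Within a list, the genes named were chosen after their values were seen, and their FAIRE counts stand beside a share of 55.9% over all members. Their counts among distal peaks stand beside 4589 of all 17290 distal peaks without H3K4me1. Mesenchymal and matrix genes had 45 members (0.981%, against 0.898% of the comparison set), 28 of them with FAIRE. These lay at 16 of 32 genes, while 26 of the 32 had a peak of the comparison set. ZEB2, a repressor of E-cadherin, had 9 members among 18 distal peaks, at 138 to 1463 kb from its start. CDH2, which encodes N-cadherin, had 6 among 17, at 2.03 to 1323 kb. CDH11, a cadherin of mesenchymal cells, had 4 members at 209 to 421 kb, all with FAIRE, and no distal peak with H3K4me1. This gene is in a stretch of 7.82 Mb on chromosome 16 between neighbouring H3K4me1 peaks, where all 8 members overlapped FAIRE. TGFBI, a secreted matrix protein gene, had 4 members among 6 distal peaks, all 4 with FAIRE, with scores of 147 to 2160. The strongest of them was 1086 bp from H3K4me1. Of the 3 members each assigned to CAV2 and FBN1, 0 overlapped FAIRE.

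Luminal genes had 18 members (0.392%, 0.248% to 0.619%), 9 of them with FAIRE, against 27 peaks (0.213%, 0.146% to 0.309%) in the comparison set. GATA3, a luminal transcription factor, accounted for 10 of the members, 6 with FAIRE, among 29 distal peaks assigned to it. These 10 lay 5.77 to 1238 kb from its start. The strongest, at chr10:8109685-8114757 in an intron of GATA3, scored 3100, held 2 FAIRE peaks and lay 57043 bp from H3K4me1. The 3 members assigned to ESR1, which encodes estrogen receptor alpha, were weak, with scores of 54.4 to 62.5. RAS-ERK genes had 19 members (0.414%, 0.265% to 0.646%, against 0.693%, 0.563% to 0.853%), 13 of them with FAIRE. They included 5 of the 15 distal peaks of SPRY2, an inhibitor of the pathway, all 5 with FAIRE and at 22.2 to 791 kb, and all 4 of DUSP1, a MAP kinase phosphatase gene, of which 2 had FAIRE.

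The other lists were small. YAP/TEAD genes had 17 members (9 with FAIRE) among 81 distal peaks. CRIM1 had 5 members among 18 distal peaks, at 77.8 to 1146 kb from its start. NT5E had 3 among 7, at up to 324 kb, and TEAD1 had 3 among 8, at up to 74.9 kb. Epithelial genes had 13 members (9 with FAIRE) among 43 distal peaks. They included 3 assigned to ELF3 and 3 of the 5 distal peaks of GRHL2, both epithelial transcription factors. ELF3 had no distal peak with H3K4me1. AP-1 family genes had 12 members (9 with FAIRE) among 43 distal peaks. FOSL2 had 4 members among 10 distal peaks, with scores from 54.7 to 1754. The strongest member on the list (2251) lay 124 kb from JUN. NF-kB and cytokine genes had 7 members (5 with FAIRE) among 25 distal peaks. Of the 7 members, 4 were assigned to CSF2, all with FAIRE and with a median score of 1975. No distal peak with H3K4me1 was assigned to that gene. The 4 members lay 11 to 26 kb from its start.

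Some genes outside the lists, named after their values were seen, had every assigned distal peak without H3K4me1. Over all distal peaks, 4589 of 17290 lacked H3K4me1, and FAIRE was present at 55.9% of all members. NFIB had 12 such members (6 with FAIRE), and GLIS3, a zinc finger factor gene, had 9 (5 with FAIRE). ATP8B1, a phospholipid flippase gene, and SLITRK5, a neuronal membrane protein gene, had 8 each (6 and 4 with FAIRE). Those of ATP8B1 lay 2.83 to 41.9 kb from its start, and those of SLITRK5 11.7 to 1840 kb. The median scores of these 4 genes were 363, 605, 499 and 360. PHLPP1, with 7 (5 with FAIRE), and PCDH15, with 6 (3 with FAIRE), also had every assigned distal peak without H3K4me1. Their median scores of 134 and 106 were below the median of 143 for all members. NFIB is a gene of the 9.47 Mb stretch on chromosome 9 described above, so the same members can be counted in both. Stretches between neighbouring H3K4me1 peaks with 8 or more members also included at least part of GLIS3 (0.864 Mb), ATP8B1 (2.91 Mb) and PHLPP1 (0.784 Mb). Whether the lack of H3K4me1 belonged to these genes or to their regions was not tested. KAZN had the most members, 18 of 26 distal peaks, with FAIRE at 5. MYC, the proto-oncogene, had 10 of 21, with FAIRE at 8 and a median score of 542. These 10 lay 20.6 to 936 kb from its start.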

How the data were processed

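MDAMB231 samples for 3 histone marks and FAIRE were aligned by the authors to GRCh37 (hg19) with BWA, and duplicates and reads of low quality were removed. The submitters' processing notes also name TopHat and HOMER. Histone peaks carry the score the authors obtained from MACS against input, the log10 of the p-value multiplied by minus 10. The FAIRE signal, as deposited by the authors, was taken as the height of a FindPeaks peak called against input, although the file has no header that states this. Each list combines 2 samples. The lists have no header, and their assays were taken from the names the authors gave them. After 5 duplicate FAIRE peaks were dropped, overlaps of at least 1 base, distances to 221317 GENCODE start sites (release 44 lifted to GRCh37) and motif matches were computed with numpy 2.4.6, pandas 2.3.3 and pysam 0.24.0, intervals with scipy 1.17.1. Distances were checked with bedtools 2.31.1 on simulated intervals. Peaks named were, by score and then width, the first 6 members with and 4 without FAIRE, the 3 with the tallest FAIRE peak, the 2 of lowest score, and the strongest of each gene list. Some sequences read for these peaks are not reported here. Alternatives changed score thresholds, distances, width limit, annotation, chromosomes, FAIRE calls and motif window. The members and lists were chosen with earlier results of these data known.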

Additional observations from a re-analysis of the deposited data

Results flagged for a closer look

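Chromosome X was outside the selection but held peaks that met the rest of the rule. Of 507 distal H3K27Ac peaks on X without H3K4me3, 280 had no H3K4me1 peak (55.2%, 50.9% to 59.5%), close to the share on chromosome 19. FAIRE overlapped 211 of the 280 (75.4%, 70% to 80%), and their median score was 174.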

How the results depend on the processing

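Of 90 values recomputed under 12 alternatives, 62 stayed within their 95% interval or, for counts, within 1.5 times. The FAIRE difference between distal peaks with H3K4me1 and members kept its sign and ranged from 23.4 to 30.4 points. With H3K27Ac scores of at least 100 there were 2998 members with a median score of 242, and FAIRE shares were 62.7% for members and 86.1% for the comparison set, a difference of 23.4 points. With only H3K4me1 and H3K4me3 peaks of score at least 100 used, there were 8439 members with a median score of 171, FAIRE shares were 62.6% and 87.5% (24.9 points), the median start distance was 13848 bp, and 13.1% lay within 5 kb of H3K4me1. With no such peak within 1 kb, 14.1% did. With a start site limit of 5 kb, the intron share was 58% and the median start distance 17997 bp, and with protein-coding starts only it was 28599 bp. The FAIRE share of the comparison set was 81.6% at a width limit of 5000 bp. Counting only FAIRE peaks from the median of their list upward, FAIRE shares were 27.3% and 57.8% (30.4 points) and AP-1 shares 50.9% and 50.8%. AP-1 shares were 37.2% and 36.7% in 200 bases and 62.8% and 63.9% in 500 bases. In the middle GC range, added after seeing the data, there were 2692 members, and the FAIRE share of the comparison set was 84%. The thresholds, distances and windows changed which peaks or bases were counted, and other causes were not tested. No paired analysis was possible because the authors merged the samples of an assay into a single list. The depth behind each list is unknown here, so a missing H3K4me1 peak means that none was listed, not that the mark was absent.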
